A study of Mus musculus with 14 samples.

Results

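Interstitial cells of Cajal are the pacemaker cells of the gut wall, and this account follows 6 genes that mark or feed them through the deposited data. The genes were listed by name: Kit, Kitl, Ano1, Etv1, Prkcq and Enpep, 6 of the 40481 genes in the bulk count table, each of which also has a row in the matrices of nuclei. Kit encodes the receptor tyrosine kinase on which these cells depend, and Kitl encodes its ligand, stem cell factor, made by neighbouring cells. Signalling through the receptor keeps the cells alive and stabilises the transcription factor Etv1, while the calcium-activated chloride channel Ano1 carries the pacemaker current that spreads to smooth muscle as slow waves. Prkcq encodes protein kinase C theta, long used as a second marker beside Kit, and Enpep encodes glutamyl aminopeptidase, a membrane enzyme that trims angiotensin peptides.

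The series examined loss of Carmn, which encodes a long non-coding RNA known from smooth muscle, in the muscularis (the muscle coat with its nerves and interstitial cells) of C57BL/6 mice. Bulk RNA was sequenced from colon and jejunum, with 3 libraries of genotype "Carmn iKO" and 3 of genotype "WT mTmG" in each tissue, and nuclei were sequenced from colon, with 1 library per genotype. These genotypes are called KO and WT, and bulk libraries keep the tags of their titles (t1, t4, t6, t7, m1). The sources used here do not give how and in which cells Carmn was deleted, whether KO mice carry the mTmG reporter allele, their age, or any treatment or pooling. The bulk libraries held 24254905 to 44315104 counts. Carmn itself went against the label in bulk: it stood at 304 to 718 CPM (counts scaled to library size) in the colon libraries labelled KO against 171 to 351 CPM in WT, and at 817 to 996 against 206 to 326 CPM in jejunum. Which exons were removed is not known here, and counts outside them would not check the label, so "KO" below means a library labelled KO. In the nuclei Carmn was lower in KO, at 2.2 against 6.57 UMIs (unique molecular identifiers) per 10000. KO colon t4 was the lowest library of its tissue for all 6 genes, and KO jejunum m1 for each of them except Enpep.

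Kit (ENSMUSG00000005672) lies on the plus strand of chromosome 5 at 75574916 to 75656722, and Kitl (ENSMUSG00000019966) on the plus strand of chromosome 10 at 100015630 to 100100416 (GENCODE M21, GRCm38). Ano1 (ENSMUSG00000031075), read from the minus strand, spans 144588549 to 144751974 of chromosome 7, and Etv1 (ENSMUSG00000004151) on the plus strand of chromosome 12 at 38779380 to 38870484. Prkcq (ENSMUSG00000026778) lies on the plus strand of chromosome 2 at 11172108 to 11301222, and Enpep (ENSMUSG00000028024), read from the minus strand, spans 129269175 to 129332720 of chromosome 3. Ano1 and Enpep each overlap 1 other annotated gene and Prkcq overlaps 3, and since the use of strand in counting is not given, their counts may include reads of these neighbours.

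The start regions of the receptor and of its ligand are shown because they are the 2 among the 6 genes whose promoter windows overlap an accessible region listed for the nuclei. The windows run from 250 bases before to 50 bases after the annotated start (RefSeq, GRCm38.p6, plus strand, 5′ to 3′), and capitals mark matches to the motifs searched.
Kit, chr5:75574737-75575036: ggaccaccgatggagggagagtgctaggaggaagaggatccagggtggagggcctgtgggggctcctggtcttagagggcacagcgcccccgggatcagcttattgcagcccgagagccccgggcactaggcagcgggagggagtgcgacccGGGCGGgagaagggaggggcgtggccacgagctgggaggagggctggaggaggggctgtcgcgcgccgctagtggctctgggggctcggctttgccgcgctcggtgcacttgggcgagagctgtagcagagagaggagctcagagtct
Kitl, chr10:100015571-100015870: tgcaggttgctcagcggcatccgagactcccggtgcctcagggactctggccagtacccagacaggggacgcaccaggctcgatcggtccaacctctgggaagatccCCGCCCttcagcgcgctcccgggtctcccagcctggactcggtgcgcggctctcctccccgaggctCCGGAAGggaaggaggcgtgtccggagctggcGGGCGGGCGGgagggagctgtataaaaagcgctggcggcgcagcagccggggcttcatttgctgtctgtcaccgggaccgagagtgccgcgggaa
On both strands, 4 motifs were searched: the GC box GGGCGG, the ETS core CCGGAAG, and the E-boxes CACGTG and CATGTG. The Kit window held 1 GC box, and the Kitl window held 3 GC boxes, 2 of them overlapping, and 1 ETS core. Of 32851 promoter windows of the same length, 35.7% hold the GC box, 8.86% the ETS core, 7.15% CACGTG and 14.2% CATGTG. A match is a run of letters and not evidence of binding.

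Kitl, the ligand, was lower in colon KO, with every KO library below every WT library, but the difference did not pass the threshold. The KO colon libraries had 114 (m1), 61.0 (t4) and 74.0 (t6) CPM, and the WT colon libraries 125 (t1), 139 (t6) and 124 (t7) CPM. The means were 82.9 ± 27.5 and 129 ± 8.28 CPM (SD, n = 3 each), and the log2 fold change was -0.64 (SE 0.22, 95% interval -1.12 to -0.16, adjusted p = 0.217 by the quasi-likelihood test of edgeR, with Benjamini-Hochberg adjustment over all genes). In jejunum the groups overlapped, with 124 (m1), 144 (t1) and 160 (t4) CPM in KO and 180 (t1), 154 (t6) and 143 (t7) CPM in WT, with log2 fold change -0.15 (SE 0.22, adjusted p = 0.806 by edgeR).

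Kit, the receptor, differed between KO and WT by less than the spread between libraries in both tissues, and 1 KO library was low in each. In colon KO it had 156 (m1), 56.3 (t4) and 161 (t6) CPM, and in colon WT 131 (t1), 123 (t6) and 178 (t7) CPM. The means were 124 ± 58.9 and 144 ± 29.9 CPM (SD, n = 3 each), with log2 fold change -0.21 (SE 0.35, 95% interval -0.97 to 0.55, adjusted p = 0.843 by edgeR). Without KO colon t4 the sign turned, to 0.14 (edgeR adjusted p = 0.854). The jejunum KO libraries had 104 (m1), 145 (t1) and 192 (t4) CPM and lay on either side of the WT libraries, at 140 (t1), 136 (t6) and 144 (t7) CPM. There the log2 fold change was 0.07 (SE 0.35, 95% interval -0.69 to 0.83, edgeR adjusted p = 0.955).

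Etv1, the transcription factor that acts with the receptor, did not differ between KO and WT beyond the spread of the libraries. Its colon values were 72.0 (m1), 31.7 (t4) and 51.3 (t6) CPM in KO and 70.4 (t1), 53.9 (t6) and 69.6 (t7) CPM in WT, and its jejunum values were 32.3 (m1), 81.4 (t1) and 67.6 (t4) CPM in KO and 85.2 (t1), 71.3 (t6) and 70.7 (t7) CPM in WT. The same 2 KO libraries were the lowest of their tissues, and the groups overlapped. The log2 fold changes were -0.32 in colon (SE 0.33, edgeR adjusted p = 0.721) and -0.32 in jejunum (SE 0.33, edgeR adjusted p = 0.718). The colon value was -0.067 without KO colon t4 and -0.64 without KO colon m1, and leaving out KO jejunum m1 gave -0.05 in jejunum, while leaving out KO jejunum t1 gave -0.61.

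Ano1, the chloride channel, had the highest level per kilobase of exon among the 6 genes in both WT tissues and was also lowest in those 2 libraries. Colon KO had 195 (m1), 85.1 (t4) and 127 (t6) CPM against 168 (t1), 214 (t6) and 227 (t7) CPM in WT. Jejunum KO had 160 (m1), 315 (t1) and 408 (t4) CPM against 324 (t1), 342 (t6) and 496 (t7) CPM in WT. In both tissues 1 KO library reached into the range of WT and the KO mean was the lower one. The log2 fold change was -0.58 in colon (SE 0.36, 95% interval -1.37 to 0.21, edgeR adjusted p = 0.5) and -0.39 in jejunum (SE 0.36, 95% interval -1.18 to 0.39, edgeR adjusted p = 0.676). Leaving out KO colon t4 gave -0.33 and leaving out KO colon m1 -0.94 in colon. In jejunum the value was -0.13 without KO jejunum m1, -0.71 without KO jejunum t4 and -0.18 without WT jejunum t7.

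Prkcq, the kinase, was sparse in colon. It had 13.9 (m1), 3.68 (t4) and 13.9 (t6) CPM in colon KO and 8.39 (t1), 7.42 (t6) and 12.4 (t7) CPM in colon WT. Of the 3 KO values 2 lay above all WT values and 1 below them, with log2 fold change 0.16 (SE 0.42, adjusted p = 0.910 by edgeR). In jejunum it stood at 34.1 (m1), 38.6 (t1) and 59.6 (t4) CPM in KO and 55.6 (t1), 53.6 (t6) and 49.4 (t7) CPM in WT, with log2 fold change -0.26 (SE 0.41, adjusted p = 0.831 by edgeR).

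Enpep, the aminopeptidase, had the largest difference among the 6 genes in colon, again without passing the threshold. The colon KO libraries had 63.2 (m1), 29.5 (t4) and 59.5 (t6) CPM, all below the WT libraries at 105 (t1), 98.2 (t6) and 70.1 (t7) CPM. The means were 50.7 ± 18.5 and 91.0 ± 18.4 CPM (SD, n = 3 each), with log2 fold change -0.84 (SE 0.31, 95% interval -1.53 to -0.16, adjusted p = 0.247 by edgeR). In jejunum the KO libraries had 96.9 (m1), 125 (t1) and 59.8 (t4) CPM and spanned the WT libraries at 91.9 (t1), 76.6 (t6) and 87.3 (t7) CPM, with log2 fold change 0.14 (SE 0.31, adjusted p = 0.887 by edgeR). The effects in the 2 tissues differed by -0.98 (SE 0.44, edgeR adjusted p = 0.941), so a difference between tissues was not detected.

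**Figure D1:**
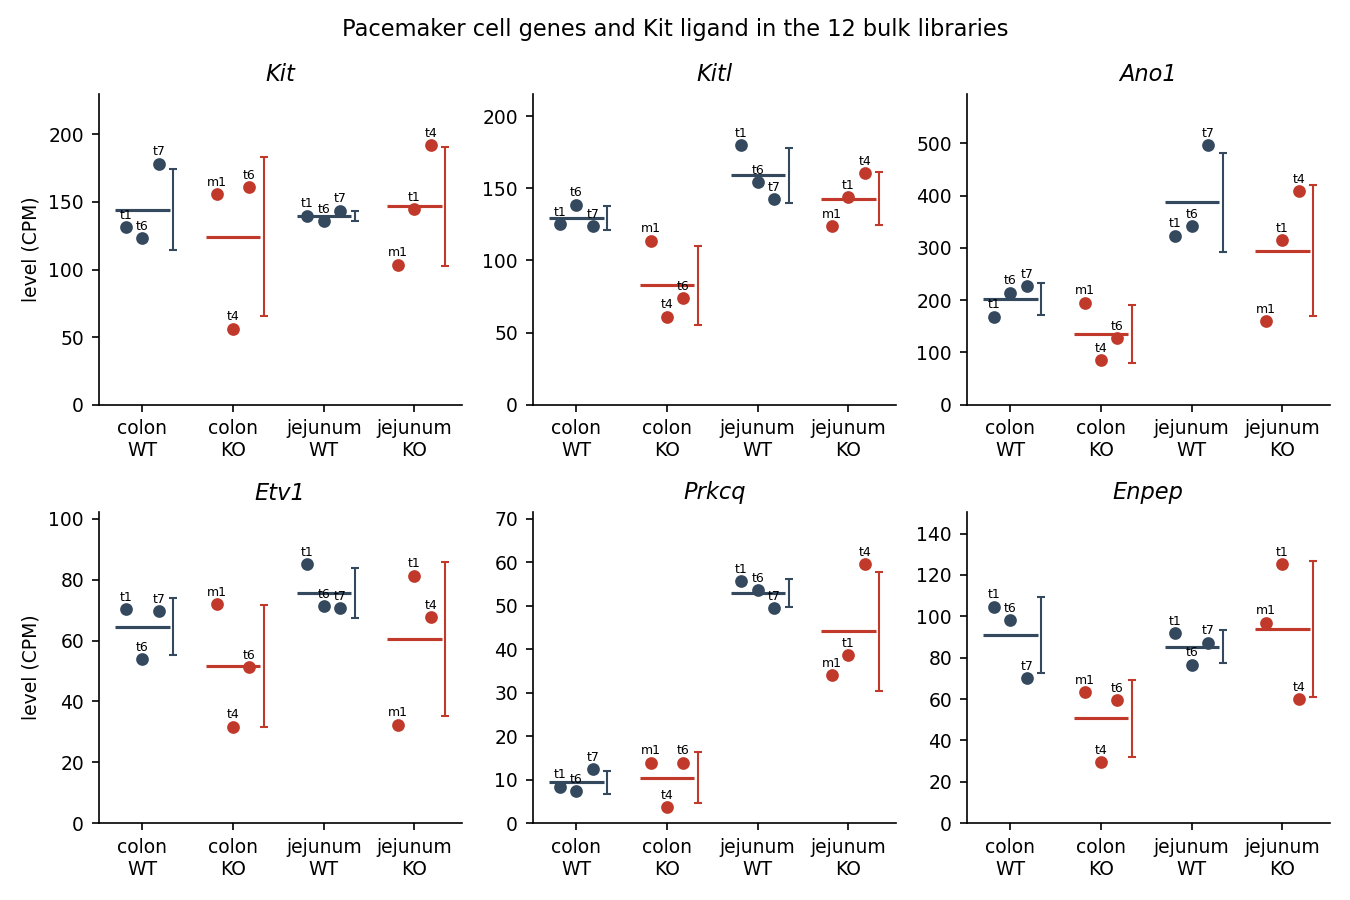
Level of each of the 6 genes (CPM, linear axis from 0) in the 3 libraries of each group; points are libraries with their tags, lines are group means and bars are ± 1 SD. KO colon t4 is the lowest colon library for all 6 genes, and Prkcq is lower in colon than in jejunum in every library.

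Of the 6 genes 0 passed the edgeR threshold in colon, where 0.388% of 20886 genes tested were called, and 0 in jejunum, where 0.215% were called. At an unadjusted p below 0.05, 2 members (Kitl and Enpep) remained in colon, against 14.5% of all genes, and 0 in jejunum, against 13.2%. DESeq2 and limma voom also called 0 members in either tissue. Values of KO and WT did not overlap for 2 of the 6 genes in colon, against 19.2% of all genes, and for 0 in jejunum, against 22.2%. The test of the difference between tissues called 0 members and 0% of all genes; 1 member, Enpep, had an unadjusted p below 0.05, against 4.16% of all genes. The median log2 fold change of the 6 genes was -0.45 in colon and -0.21 in jejunum, beside 0.00 and 0.02 over all genes tested. The colon intervals reach down to -0.97 for Kit and -1.37 for Ano1, so the size of a possible fall is loosely bounded.

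**Figure D2:**
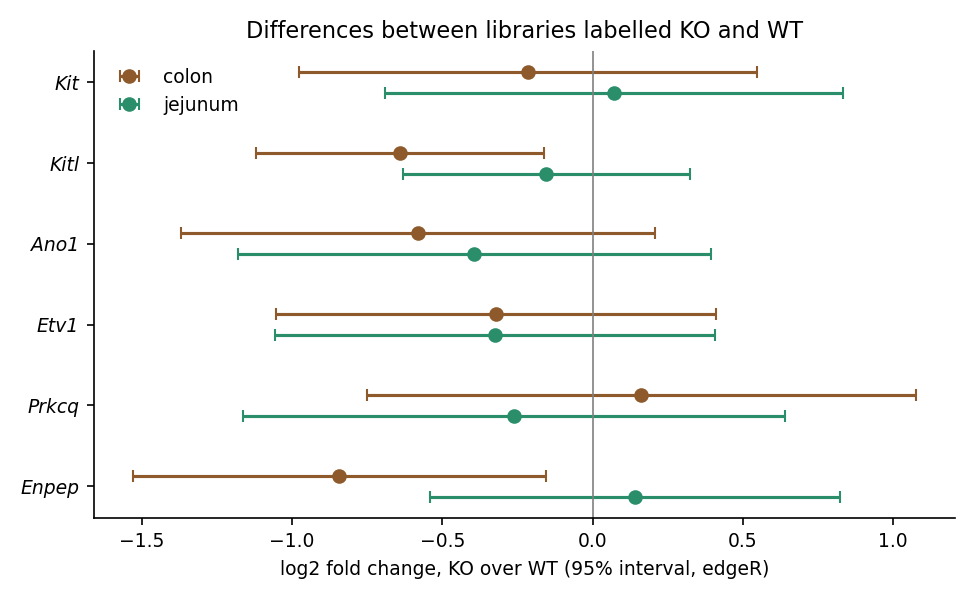
Log2 fold change of KO over WT in colon and jejunum for the 6 genes, with 95% intervals from the edgeR fit of all 12 libraries. The intervals of Kitl and Enpep in colon lie below 0 before adjustment over all genes, and the other intervals include 0.

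Without both KO colon t4 and KO jejunum m1, 0 members were called in either tissue, and the colon values were 0.15 for Kit, -0.45 for Kitl, -0.32 for Ano1, -0.05 for Etv1, 0.58 for Prkcq and -0.55 for Enpep. The jejunum values of that fit were 0.24 for Kit, -0.087 for Kitl, -0.13 for Ano1, -0.049 for Etv1, -0.13 for Prkcq and 0.094 for Enpep. Markers of other cells moved with these libraries. The summed level of 10 fibroblast markers was 13294 CPM in KO colon t4 against 3067 and 3713 CPM in the other KO colon libraries and 4005 to 6571 CPM in WT. The 8 macrophage markers summed to 1713 CPM in KO colon t4 and to 467 to 801 CPM in the other colon libraries. In KO jejunum m1 the fibroblast markers summed to 8093 CPM, the macrophage markers to 2242 CPM and the 10 smooth muscle markers to 93637 CPM. The other jejunum libraries had 3153 to 3919, 216 to 1214 and 48314 to 53352 CPM of these markers. Mast cells also carry Kit, and the 10 mast cell markers summed to 134 CPM in KO colon t4, of which 129 CPM came from Hdc, against 4.48 to 10.8 CPM in the other colon libraries, while the mast cell protease Cpa3 stood at 0 to 0.742 CPM in all colon libraries. In colon the smooth muscle markers summed to 34878 to 47530 CPM in colon KO and 51782 to 75568 CPM in colon WT. The 11 epithelial markers ranged from 104 to 4173 CPM in colon WT and from 1284 to 2924 CPM in colon KO. The 8 markers of interstitial cells of Cajal outside the 6 genes summed to 574 CPM in KO colon t4 and 762 and 939 CPM in the other KO colon libraries, against 775 to 915 CPM in WT. The part of these differences in the values of the 6 genes was not tested, and in bulk tissue fewer cells of a type and less RNA per cell cannot be told apart.

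Across the 6 libraries of a tissue, no pair of members moved together beyond the threshold. Of 30 relations between pairs of members, 0 had a Benjamini-Hochberg adjusted exact permutation p below 0.05. Kit and Prkcq in colon had r = 0.96 (two-sided exact permutation p = 0.0139, adjusted p = 0.153) and rho = 0.77 (exact p = 0.103, adjusted p = 0.617), and r was 0.99 without the 2 libraries farthest from the median of Kit. Kit and Etv1 in colon had r = 0.87 (exact p = 0.0542, adjusted p = 0.175) and rho = 0.37 (exact p = 0.497, adjusted p = 0.785), and r was 0.00 without the 2 libraries, so this relation rested on them. Kitl and Enpep in colon had r = 0.89 (exact p = 0.00417, adjusted p = 0.125) and rho = 0.94 (exact p = 0.0167, adjusted p = 0.5), and r was 0.75 without 2 libraries.

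Between the WT tissues, Prkcq was the member that passed the threshold. It had 9.41 ± 2.64 CPM in colon and 52.9 ± 3.16 CPM in jejunum (SD, n = 3 each), with log2 fold change -2.49 (SE 0.44, adjusted p = 0.0199 by edgeR), and it was the 1 of 6 members called in a comparison that called 1.56% of all genes. Kit stood at 144 ± 29.9 and 140 ± 3.88 CPM (log2 fold change 0.04, SE 0.35, 95% interval -0.72 to 0.81, edgeR adjusted p = 0.986). Within a library, counts of Prkcq came to 0.0603 to 0.0696 per count of Kit in WT colon and 0.344 to 0.397 in WT jejunum. Ano1 was lower in every WT colon library than in every WT jejunum library (203 ± 30.7 and 387 ± 94.9 CPM, log2 fold change -0.93, SE 0.36, edgeR adjusted p = 0.278); with the tag as a replicate block in a fit of the WT libraries, its adjusted p was 0.0499. Kitl (log2 fold change -0.30, edgeR adjusted p = 0.641) and Etv1 (-0.23, adjusted p = 0.869) were also lower in every WT colon library, so WT values did not overlap for 4 of the 6 genes, against 22.9% of all genes. The Prkcq call was lost without WT colon t1 (edgeR adjusted p = 0.0985), WT colon t6 (0.0723), WT jejunum t1 (0.0702) or WT jejunum t6 (0.0596). Per kilobase of exon in WT colon, the order was Ano1 (32.5 CPM per kb), Kitl (21.9), Enpep (19.3), Kit (16.2), Etv1 (4.86) and Prkcq (1.33). The steps from Kitl to Enpep and from Enpep to Kit were smaller than the SD of Enpep, so the order of these 3 genes was not resolved.

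The wider pathway was followed in 5 lists of 90 genes. Among 30 genes of KIT signalling, 0 were called in colon and 1 in jejunum (all genes 0.388% and 0.215%). In jejunum Socs6, which encodes a suppressor that binds the activated receptor, fell by 0.92 on the log2 scale (SE 0.16, edgeR adjusted p = 0.0480). Its level was 26.4 ± 3.72 CPM in KO and 50.03 ± 5.08 CPM in WT (SD, n = 3 each). Gab2, an adaptor downstream of KIT, had log2 fold changes of 1.46 in colon (SE 0.30, edgeR adjusted p = 0.0703) and 0.92 in jejunum (SE 0.30, adjusted p = 0.214). Among the list's other leading genes the values were -0.48 for Pik3ca and 0.57 for Stat3 in colon and 1.12 for Ptpn6 in jejunum, none past the threshold. The list's median was 0.10 in colon and 0.09 in jejunum, beside 0.00 and 0.02 for all genes, and 6 of its genes in each tissue had an unadjusted p below 0.05, against 14.5% and 13.2% of all genes.

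Of 15 genes of ERK feedback and ETS partners of Etv1, 0 were called in either tissue, 4 in each had an unadjusted p below 0.05 (all genes 14.5% and 13.2%), and the medians were 0.30 and 0.26. The phosphatase gene Dusp4 had 1.18 in colon (SE 0.29, edgeR adjusted p = 0.123) and 0.76 in jejunum (adjusted p = 0.299), and the immediate early gene Egr1 had 1.59 and 1.48 (adjusted p = 0.247 and 0.319). Among 22 other genes of calcium and chloride handling, 0 were called by edgeR in either tissue, with 4 and 3 at an unadjusted p below 0.05 and medians of 0.08 and 0.00. The T-type channel gene Cacna1g had 0.88 in jejunum (edgeR adjusted p = 0.349), and the sodium-calcium exchanger gene Slc8a1 had -0.44 in colon (adjusted p = 0.329).

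In the list of transmitter receptors and cGMP parts, 1 of 14 genes was called in colon and 0 in jejunum (all genes 0.388% and 0.215%). An unadjusted edgeR p below 0.05 was found for 6 and 5 of them, against 14.5% and 13.2% of all genes. The log2 fold change was below 0 for 10 of the 14 in colon and 13 in jejunum (medians -0.50 and -0.45), while 50.3% and 51.5% of all genes were above 0. In colon the smooth muscle marker sums above were also lower in KO, and their part in these values was not tested. Chrm2, the M2 muscarinic receptor, fell in colon by 1.45 on the log2 scale (SE 0.26, edgeR adjusted p = 0.0433), with 84.3 ± 7.96 CPM in KO and 230 ± 46.2 CPM in WT (SD, n = 3 each), and its jejunum value was -1.17 (SE 0.26, adjusted p = 0.0971). Among 9 genes of stem cell factor processing and membrane peptidases, 1 was called in colon and 0 in jejunum. An unadjusted p below 0.05 was found for 6 and 0, beside the same shares of all genes, and the medians were -1.56 and 0.00. Dpp4, a dipeptidyl peptidase, fell in colon by 1.81 (SE 0.30, edgeR adjusted p = 0.0326; 15.3 ± 2.50 against 53.4 ± 17.6 CPM, SD, n = 3 each). Anpep and Mme, membrane peptidases, of which gut epithelium also makes Anpep, had colon values of -3.27 and -4.51 (edgeR adjusted p = 0.132 and 0.154), in the tissue whose WT libraries ranged most widely in epithelial markers, and the part of epithelial RNA was not tested. The Chrm2 call was lost in 11 of 12 fits that each left out 1 library (all but KO jejunum m1) and the Socs6 call in 10 of 12 (all but KO colon t4 and t6). Dpp4 lost its call in 6 of 12, without KO colon t4 or t6, WT colon t1 or t6, KO jejunum t4 or WT jejunum t1.

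Single nuclei show in which classes UMIs of the 6 genes were found, with 1 library per genotype and so no test between genotypes. After filtering, 2836 WT and 1696 KO nuclei remained, with median UMI counts of 1578.5 and 1857. The doublet caller marked 1 and 0 nuclei and so did not work here, and 11 barcodes occurred in both libraries. Nuclei were grouped into 23 clusters with the 6 genes left out of the genes used, and classes were named from marker lists and leading genes once the clusters were known. In 1 cluster, Kit, Prkcq, Enpep, Etv1 and Ano1 were among the 10 genes with the highest fold over other nuclei. This cluster had 8 of 12 markers of interstitial cells of Cajal at 2-fold or more and in at least 10% of its nuclei. Of these, 4 lay outside the 6 genes (Cacna1d, Slc12a2, Gucy1a1 and Gucy1b1). Thbs4, at 6.2-fold, was seen in 4.43% of its nuclei. The same list was also the best match of a second cluster, Grin3a/Hs3st4, with 4 of the 12 markers at 2-fold or more. That second cluster is kept apart below and is not counted in the shares of the first. All 10 mast cell markers were at 0 UMIs in the first cluster. They were at or near 0 in all other nuclei too, so their absence does not help to name it. The first cluster is called interstitial cells of Cajal-like.

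The interstitial cells of Cajal-like nuclei were present in both genotypes in similar shares. They numbered 67 of 2836 WT nuclei, or 2.36% (exact binomial 95% interval 1.84 to 2.99), and 46 of 1696 KO nuclei, or 2.71% (1.99 to 3.60). With epithelial-like, mesothelial-like and unnamed nuclei left out of the total, the shares were 3.37% and 3.71%. These intervals cover counting error only. Their median depth was 1547 UMIs in WT and 1742 in KO. Carmn stood at 4.29 (exact Poisson 95% interval 3.20 to 5.64) UMIs per 10000 in WT and 4.34 (3.12 to 5.89) in KO in these nuclei, whereas in Colec10 smooth muscle-like nuclei it stood at 17.9 (17.1 to 18.6) in WT and 6.73 (5.68 to 7.93) in KO.

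In summed UMIs of these nuclei, Kit, Etv1, Prkcq and Kitl differed between the libraries by less than counting error, Ano1 was higher in KO and Enpep was lower. Kit had 562 UMIs in WT and 480 in KO, or 47.3 per 10000 (43.5 to 51.4) and 50.9 (46.4 to 55.6), a ratio of KO to WT of 1.08 (exact 95% interval 0.95 to 1.22). Ano1 had 44.3 (40.6 to 48.3) and 53.3 (48.7 to 58.2) per 10000, a ratio of 1.202 (1.06 to 1.36). Etv1 had 24.3 and 24.4, a ratio of 1.002 (0.84 to 1.196). Prkcq had 14.9 and 17.2, a ratio of 1.15 (0.93 to 1.43). Enpep had 10.4 (8.68 to 12.4) and 7.63 (5.97 to 9.61), a ratio of 0.73 (0.54 to 0.99), the 1 member whose interval lay below 1. Its highest WT nucleus held 19 of the 124 Enpep UMIs. With nuclei thinned to 1000 UMIs, the Enpep mean was 0.93 UMIs in 43 WT and 0.90 in 30 KO nuclei. Thinning left out 24 WT and 16 KO nuclei and gave each remaining nucleus equal weight. Whether depth or the choice of nuclei made the Enpep difference smaller was not tested. In 9 alternative settings for the nuclei, Enpep stood at 9.45 to 11.4 UMIs per 10000 in WT and 6.6 to 8.05 in KO. The thinned mean of Ano1 stayed higher in KO. Kitl was low, at 3.28 and 3.92, a ratio of 1.19 (0.74 to 1.92). The intervals cover the counting of UMIs and not the spread between mice, which 1 library per genotype does not show.

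**Figure D3:**
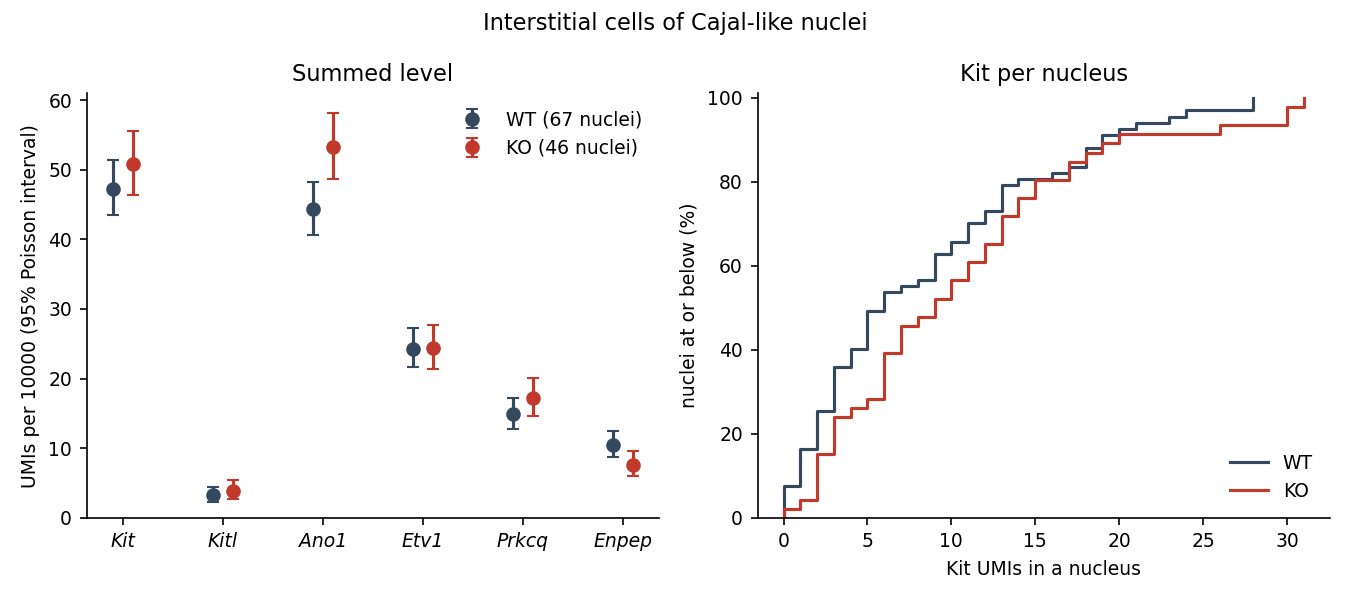
Interstitial cells of Cajal-like nuclei of the WT and KO libraries. Left, summed level of the 6 genes in UMIs per 10000 with exact 95% Poisson intervals (counting error only); right, cumulative share of nuclei by number of Kit UMIs, which reaches 28 in WT and 31 in KO.

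The single nuclei spread widely around these sums. In WT the median was 6 Kit UMIs per nucleus (quartiles 2.5 and 13, highest 28) with 5 of 67 nuclei at 0, and in KO it was 9 (quartiles 4.25 and 14, highest 31) with 1 of 46 at 0. Ano1 had medians of 6 and 8 UMIs, Etv1 of 3 and 3, and Prkcq and Enpep of 1 in both libraries. All 5 genes other than Kitl were detected in 22 of 67 WT and 16 of 46 KO nuclei, and 4 of the 5 in a further 24 and 19. Thinned to 1000 UMIs, which left out 24 WT and 16 KO nuclei, Kit was seen in 90.7% of 43 WT and 93.3% of 30 KO nuclei (unthinned 92.5% and 97.8%). Both shares stood far above Colec10 smooth muscle-like nuclei, where Kit was seen in 1 of 428 WT nuclei (0.234%) and in 0 of 71 KO nuclei, which allows a share of up to 4.23%, at median depths of 2330 and 2275 UMIs.

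Nuclei with at least 1 Kit UMI made up 241 of 2836 in WT, or 8.50% (7.50 to 9.59), and 125 of 1696 in KO, or 7.37%. At this cut most of them lay outside the interstitial cells of Cajal-like cluster, and the part of free RNA in these was not tested. In WT 62 (25.7%) lay in that cluster, 93 (38.6%) in the Muc2-high epithelial-like cluster and 86 (35.7%) in other classes. In KO the counts were 45 (36.0%), 14 (11.2%) and 66 (52.8%). With at least 5 Kit UMIs, the interstitial cells of Cajal-like cluster held 40 of 79 nuclei in WT (50.6%) and 34 of 51 in KO (66.7%). Kit was seen in 46.3% of 201 Muc2-high epithelial-like nuclei in WT and 29.2% of 48 in KO. The class is that of mucus-secreting epithelium, in which Kit is known to mark secretory cells of the crypt base, and it made up 7.09% of WT and 2.83% of KO nuclei. The share of this class moved with the share of Kit-positive nuclei, and its part in the genotype difference was not tested. Cpa3 was seen in 1 of 241 Kit-positive WT nuclei and 0 of 125 in KO.

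**Figure D4:**
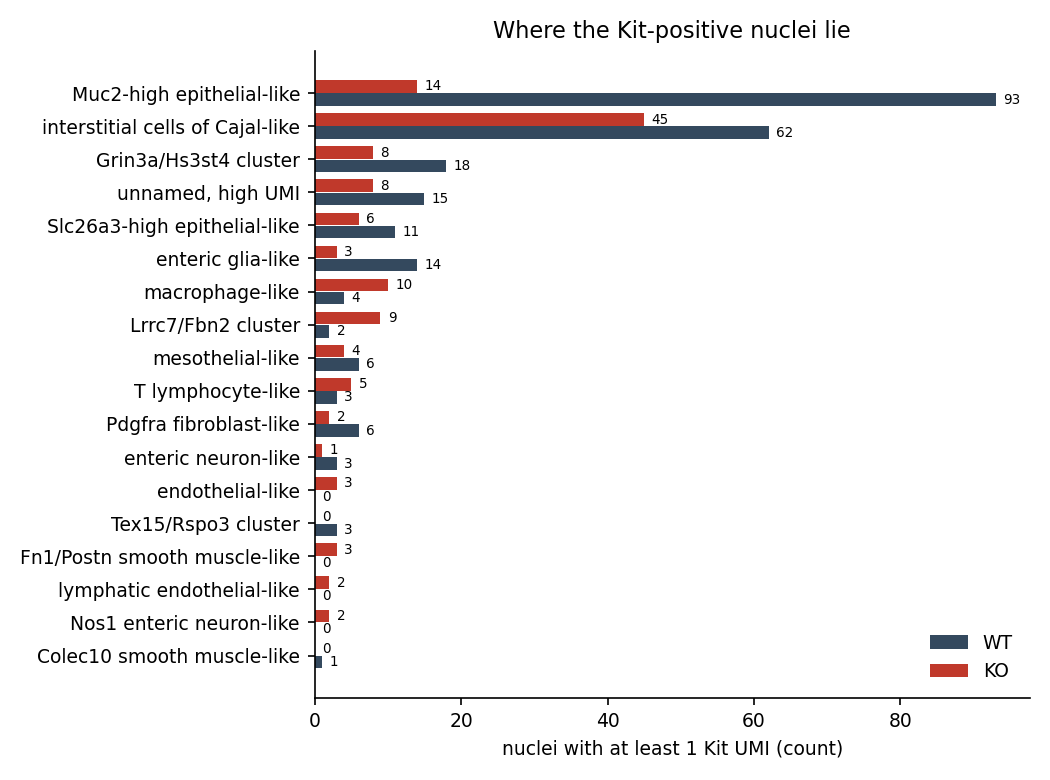
Number of nuclei with at least 1 Kit UMI in each class, WT and KO. The Muc2-high epithelial-like class holds 93 in WT and 14 in KO, and the interstitial cells of Cajal-like class holds 62 and 45.

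Other members were seen in different shares of the 2 kinds of Kit-positive nuclei. These genes helped to name the interstitial cells of Cajal-like class, so the shares describe it and test nothing. As a low reference, Colec10 smooth muscle-like nuclei in WT held a UMI of Prkcq in 0.234%, of Enpep in 0.467%, of Ano1 in 5.37% and of Etv1 in 13.8%. Among Kit-positive interstitial cells of Cajal-like nuclei, Ano1 was seen in 93.5% of 62 (WT) and 93.3% of 45 (KO), Etv1 in 85.5% and 84.4%, Prkcq in 67.7% and 68.9%, and Enpep in 58.1% and 53.3%. Among Kit-positive Muc2-high epithelial-like nuclei in WT, Ano1 was seen in 38.7% of 93, Etv1 in 6.45%, Prkcq in 1.08% and Enpep in 2.15%, and Muc2 in 98.9%. Among all nuclei without a Kit UMI in WT, Ano1 was seen in 21.2% and Etv1 in 13.8%, but Prkcq in 2.62% and Enpep in 1.08%.

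Each member except Kitl had its highest class level in the interstitial cells of Cajal-like nuclei, and the second place differed by gene. The class was named with these genes among its leading genes, so its first place is a description and not a test. For Ano1 it was the Grin3a/Hs3st4 cluster, with 14.2 (13.1 to 15.5) UMIs per 10000 in WT and 17.3 (14.7 to 20.3) in KO, followed by mesothelial-like nuclei with 11.1 and 7.88. For Etv1 it was Nos1 enteric neuron-like nuclei, with 9.07 (8.27 to 9.93) and 8.33 (7.43 to 9.31), where 82.1% and 86.5% of nuclei held a UMI. For Prkcq it was T lymphocyte-like nuclei, with 4.24 (2.03 to 7.80) and 2.74 (1.54 to 4.53) (protein kinase C theta acts in T cell receptor signalling), and lymphatic endothelial-like nuclei had 2.15 and 0.95. For Kit it was Muc2-high epithelial-like nuclei in WT, with 5.10 (4.41 to 5.86), and the Grin3a/Hs3st4 cluster in KO, with 4.48. Enpep stood at 0.62 per 10000 or less in every other class.

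Kitl had another order. Its highest class level was in Pdgfra fibroblast-like nuclei, with 11.96 (10.7 to 13.4) UMIs per 10000 in WT and 9.25 (8.39 to 10.2) in KO. Colec10 smooth muscle-like nuclei had 4.26 (3.91 to 4.63) and 5.19 (4.27 to 6.25), and Fn1/Postn smooth muscle-like nuclei 2.68 and 2.80. Enteric glia-like nuclei were low, with 0.34 and 0.44. Over all nuclei Kitl stood at 2.45 (2.34 to 2.56) in WT and 2.62 (2.49 to 2.75) in KO. The mix of classes differed between the libraries: Pdgfra fibroblast-like nuclei were 5.25% of WT and 8.14% of KO nuclei, and Colec10 smooth muscle-like nuclei 15.1% and 4.19%. The unnamed cluster of 47 WT and 36 KO nuclei with very high UMI counts (medians 8067 and 13629) held UMIs of all 6 genes; whether it holds doublets was not tested.

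**Figure D5:**
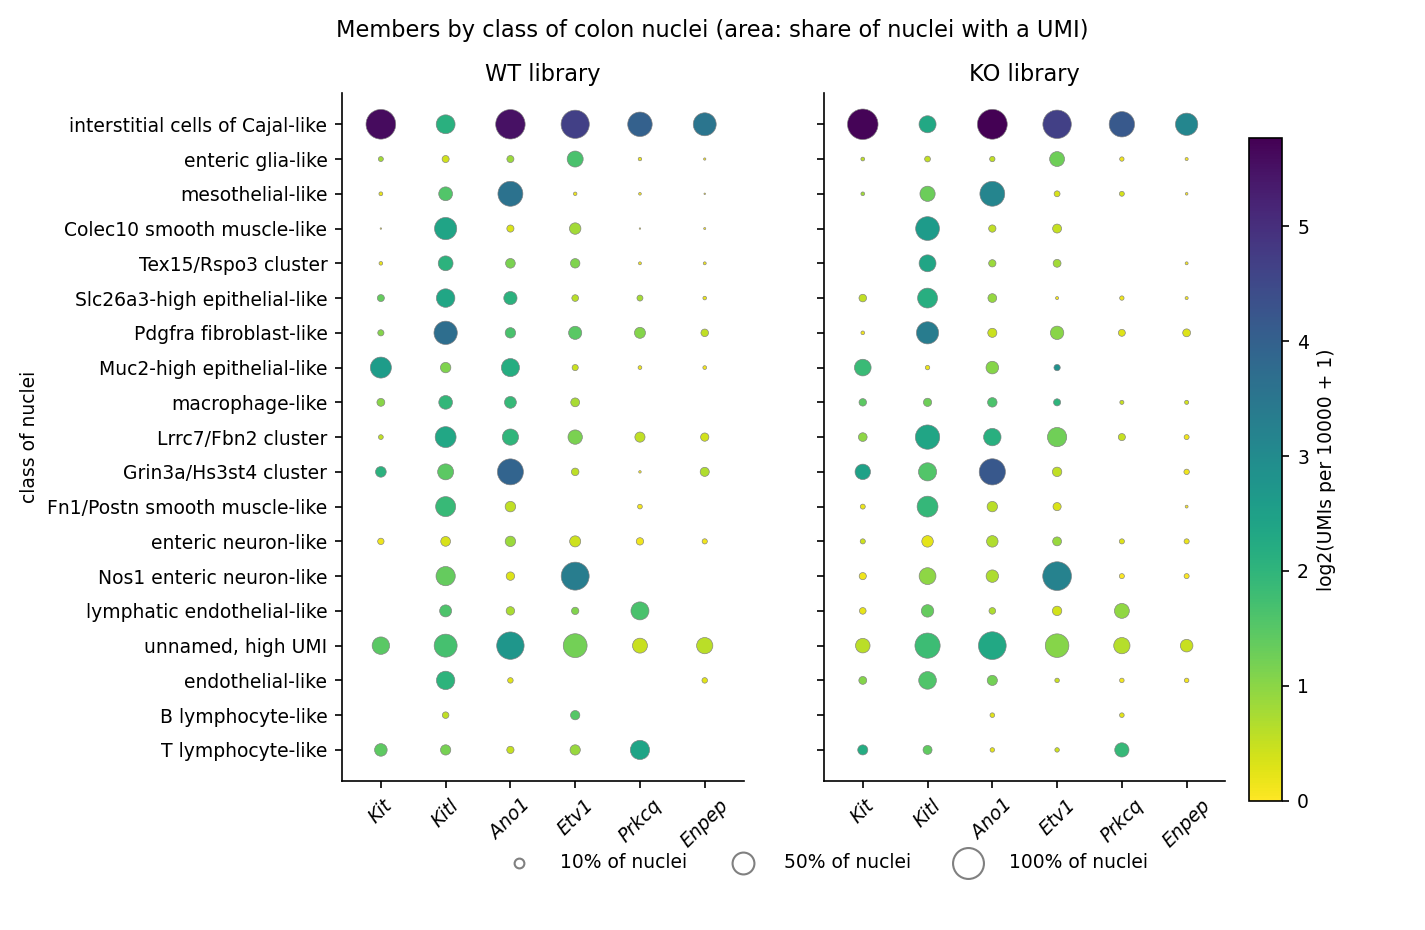
Level of the 6 genes in each class of colon nuclei, WT library (left) and KO library (right). Colour is log2(UMIs per 10000 + 1) and the area of a point is the share of nuclei with at least 1 UMI; the interstitial cells of Cajal-like row is the darkest for every gene except Kitl.

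The genes whose pattern over clusters was most like that of Kit included 2 other members. Over 44 units of cluster and library, Pearson's r with Kit on log2(UMIs per 10000 + 1) was 0.86 for Elovl6, a fatty acid elongase, 0.83 for Enpep, 0.79 for Gm1604a and 0.78 for Prkcq, ranks 1 to 4 of 13044 genes. Spry4, which encodes a feedback inhibitor of receptor tyrosine kinases, Dkk2, a secreted Wnt modulator, Masp1, Nkain3, Tmem150b and Gja1, which encodes connexin 43, completed the first 10, with r of 0.77 to 0.72. Ano1 was at rank 12, Etv1 at rank 45 and Kitl at rank 2585. The units share libraries and differ in depth, and r is a description. In the interstitial cells of Cajal-like nuclei, Dkk2 had 7.32 (5.86 to 9.03) UMIs per 10000 in WT and 13.7 (11.4 to 16.2) in KO, whereas Nkain3 had 6.23 (4.89 to 7.82) and 2.54 (1.63 to 3.78). In bulk colon their log2 fold changes were 0.28 (SE 0.30, edgeR adjusted p = 0.724) for Dkk2 and -0.61 (SE 0.99, adjusted p = 0.844) for Nkain3.

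In the interstitial cells of Cajal-like nuclei, 4 of the 5 pathway lists had summed levels with overlapping intervals in the 2 libraries. The peptidase list had a lower sum in KO, from few UMIs, most of the WT ones from 1 gene. KIT signalling had 47.4 (43.5 to 51.5) UMIs per 10000 in WT and 47.9 (43.6 to 52.5) in KO, and the ERK and ETS list 9.68 and 10.7. Calcium and chloride handling had 197 (189 to 205) and 184 (176 to 193), against 98.6 and 84.4 in all other nuclei. Transmitter receptors and cGMP parts had 143 (137 to 150) and 143 (135 to 151), against 57.9 and 43.1 elsewhere. Stem cell factor processing and membrane peptidases had 2.44 (1.63 to 3.50) in WT, from 29 UMIs, and 0.74 (0.30 to 1.53) in KO, from 7 UMIs, against 5.01 and 4.65 elsewhere. Of these UMIs, Adam33 gave 19 in WT and 2 in KO, and in all other nuclei it had 2.91 and 1.68 per 10000. Among the transmitter receptors and cGMP parts, Prkg1, the cGMP-dependent kinase, had 78.0 and 71.6, and Chrm3, the M3 muscarinic receptor, 43.3 and 52.2. Chrm2, which fell in bulk colon, had 40 UMIs in WT (3.37 per 10000) and 5 in KO (0.53), and in all other nuclei 8.20 and 5.34 per 10000.

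Accessible regions were the second readout of the same nuclei and were too sparse to compare. The deposited lists, made separately for each library, held 5 regions (WT) and 4 regions (KO) at the 6 genes. The Kit start was covered in the KO list by chr5:75574554-75575305 with 0 counts in 46 interstitial cells of Cajal-like nuclei, which allows up to 1.10 per 10000 region counts, and 34 counts (0.22 per 10000) in all other nuclei. The Kitl start was covered in the KO list by chr10:100015420-100016308 with 5 counts (1.84 per 10000, 0.60 to 4.29) in the interstitial cells of Cajal-like nuclei and 69 (0.45, 0.35 to 0.57) in the others. The Etv1 start had a region in the WT list (chr12:38778312-38779267) with 2 and 114 counts, 0.37 and 0.44 per 10000. With 54093 (WT) and 27188 (KO) region counts in these nuclei in all, a difference at any member was not detectable at this depth.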

How the data were processed

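For the bulk libraries the authors deposited raw read counts per gene. STAR 2.0.4b, Subread with featureCounts 1.4.5, edgeR and Cell Ranger, and the builds GRCm38 and mm10, are named per the submitters' processing notes, without roles or strand setting. The table's 40757 rows held 276 repeated identifiers with equal values, which were dropped. The count matrices of nuclei, deposited by the authors, were made with cellranger-arc per the file headers. All gene values in them were even (0 odd values, against 11.6% and 11.5% odd in regions), so they were divided by 2 and called UMIs, an inference from the values.

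Bulk counts were tested with edgeR 4.0.16 (R 4.3.3; filterByExpr, TMM, robust quasi-likelihood, 1 fit of 12 libraries, Benjamini-Hochberg over 20886 genes, threshold 0.05); CPM uses TMM-scaled library sizes. SE is the absolute log2 fold change over the square root of F, and intervals use the fit's degrees of freedom. Nothing states that libraries came from separate mice, so p-values measure the spread between these libraries. Pairing of libraries with the same tag in colon and jejunum was not detected (r of deviations -0.16 to 0.10). With 3 libraries a group, these values cannot exclude it. Nuclei needed 300 genes and at most 5% mitochondrial UMIs; scanpy 1.11.5 clustered them on 1995 variable genes, 30 components, 15 neighbours, Leiden resolution 1. The fit was tested on simulated data. The members, lists and tests were chosen with earlier results of these data known. Named genes were the members, the 4 smallest p of each list and tissue (the few that show most are named), the 10 genes most like Kit (genes with at least 50 UMIs, units of at least 20 nuclei), Carmn and marker sums. Hdc, Cpa3, Prkg1, Chrm3 and Muc2 were named after their values were seen. Some genes that this rule names are not reported here.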

Additional observations from a re-analysis of the deposited data

How the results depend on the processing

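Under RLE size factors, total counts, TMM without mitochondrial and the 20 most abundant genes, no filter, DESeq2, limma voom, only the 6 libraries compared, and 12 fits without 1 library each, 0 members were called in colon, jejunum or their difference. Prkcq was called between WT tissues in each of these except 4 of the 12, so 0 to 1 members were called there on leaving out a library. The tag as a replicate block gave 2 (edgeR, 6 WT libraries: Ano1 -0.93, adjusted p = 0.0499, beside Prkcq), as did leaving out KO colon t4 and KO jejunum m1 together (chosen after seeing the data; Ano1 -0.99, adjusted p = 0.0353); limma voom with the replicate block gave -0.0032 for Kit in jejunum and changed no other direction or call. Signs turned for small values. Kit turned in colon without both libraries (0.15; -0.43 to 0.14 without 1 library) and in jejunum (-0.18 to 0.24). Prkcq in colon ranged from -0.093 to 0.57 and Enpep in jejunum from -0.14 to 0.37. For the difference between tissues the ranges were -0.49 to 0.065 (Kit), -0.54 to 0.15 (Ano1) and -0.31 to 0.31 (Etv1, -0.0043 without both). Between WT tissues they were -0.19 to 0.091 (Kit; -0.011 with TMM on fewer genes, -0.012 with no filter and without both) and -0.078 to 0.19 (Enpep). Of 90 list genes, colon calls went from 2 to 9 (DESeq2), 0 (6 libraries only), 6 (without both) and 0 to 3 (without 1 library), and jejunum calls from 1 to 7 (DESeq2), 0 (total counts, no filter, 6 libraries only, without both) and 0 to 1 (without 1 library). Over all genes, DESeq2 called 960 in colon (81 in the edgeR fit), 805 in jejunum (45), 38 for the difference (0) and 1156 between WT tissues (325). With only the 6 libraries compared the counts were 0, 21 and 904 in colon, jejunum and WT tissues, without both libraries 309, 145 and 1056, and without 1 library 7 to 180, 2 to 172 and 79 to 557. In jejunum total counts gave 26 and limma voom 76 (77 with the replicate block), and the edgeR block gave 590 between WT tissues. Nuclei with at least 3 of Kit, Ano1, Etv1 and Prkcq, chosen after seeing the data, were 3.95% in WT and 4.48% in KO; a smaller denominator, also chosen then, gave 3.37% and 3.71%. Kit-positive shares were 5.47% and 5.37% with 2 Kit UMIs and 5.81% and 5.23% thinned to 1000 UMIs. The cause was not tested. With 3 libraries a group, 1 library of nuclei per genotype and 67 and 46 interstitial cells of Cajal-like nuclei, modest changes were not detectable.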

Other observations

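Within the interstitial cells of Cajal-like nuclei, genes of calcium handling differed in both directions from other nuclei. Atp2a2, the calcium pump of the sarcoplasmic and endoplasmic reticulum, had 25.2 UMIs per 10000 in WT and 32.0 in KO, against 3.77 and 4.04 in all other nuclei. Slc8a1, the sodium-calcium exchanger, had 67.5 and 52.7, against 20.8 and 18.9. Cacna1d, an L-type calcium channel subunit, had 23.0 and 22.1, against 2.90 and 2.56, while the related Cacna1c had 30.6 and 30.7, beside 23.8 and 19.3 in other nuclei. Ryr2, a calcium release channel, had 10.8 in WT and 17.0 in KO, against 7.95 and 6.75, whereas the related Ryr3 had 1.35 and 0, against 7.73 and 6.21. Of the genes of inositol trisphosphate receptors, Itpr1 had 6.23 in WT and 5.19 in KO, against 4.30 and 4.37. Itpr2 and Itpr3 had 0.084 and 0.25 in WT, from 1 and 3 UMIs, against 0.72 and 0.86. The store sensor Stim1 had 2.19 in WT, against 2.04. Slc12a2, a chloride importer, had 14.9 in WT and 13.1 in KO, against 2.46 and 2.07. The potassium channel gene Kcnma1 was lower than elsewhere, at 7.74 and 5.09 against 18.2 and 14.2. The clustering could use these genes, so the values describe the cluster and test nothing. They were chosen after their values were seen, and with 1 library per genotype no difference between genotypes was tested.

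In some classes a single nucleus held a large share of a member's UMIs. Of 96 Kit UMIs in the 536 WT enteric glia-like nuclei, 42 (43.8%) came from 1 nucleus, and in KO 21 of 29 (72.4%) did. Of 39 Etv1 UMIs in 36 KO enteric neuron-like nuclei, 37 came from 1 nucleus. In the interstitial cells of Cajal-like nuclei no Kit value exceeded 28 UMIs in WT or 31 in KO.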
